A study of Mus musculus with 5 samples.

Results

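The expression of 8 genes of the hedgehog and PTHrP pathways, Pth1r, Hhip, Ptch1, Smo, Kif7, Gli1, Gli2 and Gli3, was followed in primary mouse rib chondrocytes kept in culture for 15 days. The members were all 18 probe sets annotated to these gene symbols alone, of 34945 probe sets with 1 gene symbol and 45101 probe sets on the array. Pth1r, Kif7 and Gli1 were read by 1 probe set each, Gli2 by 2, Ptch1, Smo and Gli3 by 3 each, and Hhip by 4. The cells came from rib cages of FVB embryos at E18.5, with no genotype or treatment that differed between samples, and every dish received ascorbic acid and b-glycerolphosphate in the medium. The groups were days 2, 6, 9, 12 and 15 of culture, with 1 array for each day. The collagenase and trypsin digest of a whole rib cage was filtered and not sorted, so cells other than chondrocytes could be present.

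Hedgehog proteins are secreted signals, and Indian hedgehog (Ihh) is the form made by maturing chondrocytes of the growth plate. They bind Patched 1 (Ptch1), which otherwise holds the transducer Smoothened (Smo) inactive. Active Smo acts in the primary cilium, where Kif7 is a kinesin of the pathway, and shifts the GLI transcription factors from repressor to activator forms. Gli1, Ptch1 and Hhip are themselves hedgehog target genes, and the last of these encodes a membrane protein that binds and sequesters the ligand. Pth1r encodes the receptor for parathyroid hormone and for PTHrP, a secreted signal that is induced by Ihh and delays chondrocyte hypertrophy. Pth1r is also a receptor of osteoblasts.

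Values are MAS5 signal intensities on a linear scale, scaled by array to a common trimmed mean of 500. Median intensity ranged from 106 to 118 over the 5 arrays, and 58.8% to 61.9% of probe sets reached 73.1, the 40th percentile of all values, which was used as a floor below which levels have no order. Of the 8 genes, 7 had a mean intensity above the filter of 105.93 and belonged to the 11075 genes compared, and Gli1 did not. Of the 18 probe sets, 14 passed that filter and 10 reached the floor on all 5 days. With 1 array a day there is no replicate error for any difference, and the small number of arrays limits precision. The guide to error used here was the disagreement of probe sets: a log2 difference (day 15 minus day 2) read from 1 probe set had an SD of 0.68, estimated from 3317 genes with exactly 2 of them. Differences called within or beyond the probe set spread are under or over 1 such SD, which is no test. Those between other days were set against the same SD unless another is given. That spread holds no variation between dishes, labelling or arrays. In RNA from a whole dish, fewer cells of a type and less RNA per cell cannot be told apart.

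Pth1r, the PTH and PTHrP receptor, was far higher on the last day than on the first. Its probe set (1417092_at) had an intensity of 177 on day 2, 799 on day 6, 1082 on day 9, 1350 on day 12 and 2264 on day 15. Each day was higher than the one before it, and day 2 stood far below the rest. The level on day 15 was 12.8-fold that on day 2, a log2 difference of 3.67, and 2.09-fold that on day 9. Most of the difference lay in the first interval, with a log2 difference of 2.17 from day 2 to day 6, against 0.44 to day 9, 0.32 to day 12 and 0.75 to day 15. The steps from day 6 to day 9 and from day 9 to day 12 were within the probe set spread of 0.68, and the other steps in that order were beyond it. There was no second probe set against which to read these values.

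**Figure D1:**
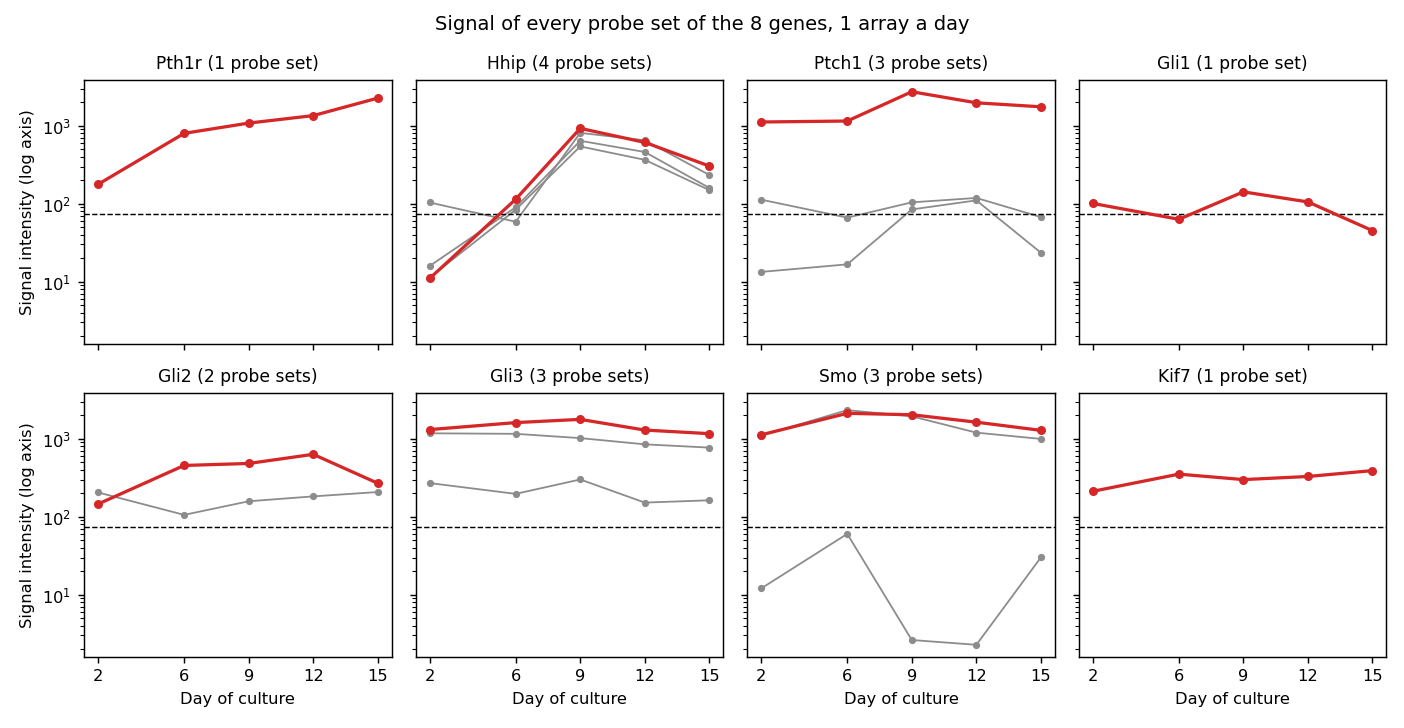
Signal intensity (log axis) of each of the 18 probe sets against day of culture, 1 panel a gene and 1 array a day, with no error bars. Red marks the brightest probe set of a gene, grey its other probe sets and the dashed line the floor of 73.1. Pth1r was higher on each successive day, and all 4 probe sets of Hhip were highest on day 9.

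Hhip, the ligand-binding inhibitor, followed another course, with a peak on day 9. The brightest probe set (1421426_at) had 11.0 on day 2, which is below the floor, then 114 on day 6, 926 on day 9, 612 on day 12 and 304 on day 15. Day 9 was at least 12.7-fold above day 2 and 8.12-fold above day 6, and day 15 was 3.04-fold below day 9 and at least 4.16-fold above day 2. That last value is a bound set by the floor. With the floor at the 20th percentile the log2 difference of Hhip was 3.72 and that of Pth1r 3.67. On this probe set, which gene differed more thus depends on the floor. With the mean over all probe sets of Hhip, the log2 difference was only 1.35. The peak on day 9 and the level on day 12 differed by 0.60 on the log2 scale, within the probe set spread, while the gap from day 12 to day 15 was 1.01.

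The course of Hhip was shared by its other 3 probe sets. The second had 104, 58.7, 811, 651 and 234 in order of day. The third and the fourth had 15.9 and 11.3 on day 2, 642 and 543 on day 9, and 159 and 149 on day 15. Thus every probe set was highest on day 9, second highest on day 12 and at or under 114 on days 2 and 6. The other 3 placed day 9 7.82-fold, at least 8.78-fold and at least 7.43-fold above day 2. They placed day 15 between 3.47-fold and 4.02-fold below day 9. Against day 2, they placed day 15 2.26-fold, at least 2.18-fold and at least 2.04-fold higher, less than the brightest probe set did. Of 1093 genes with 4 probe sets, 106 (9.70%) had all 4 highest on the same day. These genes were taken without the filter or the floor, so dim probe sets count among them. All 4 of Hhip passed the filter, so that share is not a like measure for it. The 4 share the same 5 arrays, so their agreement says nothing of the error between arrays.

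Ptch1, the hedgehog receptor, was also highest on day 9. Its brightest probe set (1428853_at) had 1118 on day 2, 1150 on day 6, 2732 on day 9, 1970 on day 12 and 1751 on day 15. Days 2 and 6 were nearly level, and day 9 stood 2.44-fold above day 2 and 2.38-fold above day 6. By day 15 the difference from day 2 was 0.65 on the log2 scale, within the probe set spread. The step from day 6 to day 9, with a log2 difference of 1.25, was beyond that spread. Days next to each other when ranked by level lay within it. The other 2 probe sets of Ptch1 were dim and did not pass the filter. The first of them had 113, 66.3, 104, 119 and 67.4 in order of day, close to the floor throughout. The other had 13.3, 16.7, 84.4, 110 and 23.5, above the floor on days 9 and 12 only.

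Gli1, the transcription factor most used as a readout of hedgehog activity, was dim, with a mean below the filter. Its probe set (1449058_at) had 101 on day 2, 63.1 on day 6, 142 on day 9, 105 on day 12 and 45.2 on day 15. It reached the floor on days 2, 9 and 12 and was highest on day 9, at least 1.94-fold above days 6 and 15 and 1.41-fold above day 2. Hhip, Ptch1 and Gli1, the hedgehog targets among the 8 genes, were thus all highest on day 9 by their brightest probe sets, a grouping noticed after the values were seen. Of all 11075 genes compared, 14% were highest on day 9, and the brightest probe set of Gli3 was too. The dimmer Ptch1 probe sets were highest on day 12. The log2 difference of Gli1 between days 9 and 2 was 0.49, within the probe set spread of 0.66 for those days.

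The RefSeq promoter table (build GRCm38.p6) held windows for 7 of the 8 genes, from 250 bases before to 50 after each start, and Gli1 had no entry. The 250 bases before the start are shown for Hhip and Ptch1, because these are the hedgehog target genes whose brightest probe sets passed the filter, both being more than 2-fold higher on day 9 than on day 6. Capitals mark CCACCC, the core of the GLI binding sequence, searched on both strands.
Hhip, chr8:80058009-80058258, minus strand: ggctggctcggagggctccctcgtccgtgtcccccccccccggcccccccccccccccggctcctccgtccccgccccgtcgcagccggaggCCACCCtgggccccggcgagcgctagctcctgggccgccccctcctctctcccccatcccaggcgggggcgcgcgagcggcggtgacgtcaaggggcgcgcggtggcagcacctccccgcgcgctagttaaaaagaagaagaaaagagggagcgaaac
Ptch1, chr13:63565736-63565985, minus strand: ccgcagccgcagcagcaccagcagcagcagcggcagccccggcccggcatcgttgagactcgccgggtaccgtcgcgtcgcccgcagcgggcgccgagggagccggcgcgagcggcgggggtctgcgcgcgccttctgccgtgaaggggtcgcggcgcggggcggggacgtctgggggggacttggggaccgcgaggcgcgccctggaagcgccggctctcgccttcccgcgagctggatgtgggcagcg

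The Hhip sequence held 1 copy of CCACCC, 158 bases before the start, and the Ptch1 sequence held none on either strand. The full motif TGGGTGGTC, whose reverse complement GACCACCCA contains the core, was in none of the 9 windows of these genes and in 0.253% of all 32851 windows. The core alone was in 31.5% of all windows, and in windows of Hhip, Gli2, Gli3 and Smo. Both printed promoters are rich in G and C, at 76% for Hhip and 78.4% for Ptch1. Pth1r had 3 windows in the table, which reflect alternative starts, and its probe set does not tell which start was in use. None of the 3 held the core. A match describes letters in these windows only.

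Gli2, the main activator of hedgehog targets in many tissues, was read by 2 probe sets that differed. The brightest (1459211_at) had 145 on day 2, 455 on day 6, 482 on day 9, 632 on day 12 and 269 on day 15. It was lowest on day 2, 3.13-fold higher by day 6, and 2.35-fold lower on day 15 than on day 12. The second had 205 on day 2, 106 on day 6, 158 on day 9, 182 on day 12 and 208 on day 15. On that probe set day 6 was the lowest day and days 2 and 15 were level, with a log2 difference of 0.02. Its identifier (1446086_s_at), like that of the brightest Smo probe set, carries the suffix that marks probes shared by several transcripts. The course of Gli2 therefore rests on which probe set is read.

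Gli3, the GLI factor best known as a repressor when the ligand is absent, varied little. The brightest probe set (1456067_at) had 1312 on day 2, 1613 on day 6, 1775 on day 9, 1294 on day 12 and 1164 on day 15. The second had 1176, 1158, 1020, 849 and 771 in order of day, lower on each successive day. The dimmest had 270, 197, 301, 152 and 163. All 3 were lower on day 15 than on day 2, by log2 differences of -0.17, -0.61 and -0.73, under the threshold of 2-fold. On the brightest, the highest day (9) and the lowest (15) differed by -0.61 (day 15 minus day 9), within the probe set spread. The dimmest had a log2 difference of -0.98 from day 9 to day 12, beyond it.

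Smo, the signal transducer, was highest on day 6 and then lower on each later day by both of its measured probe sets. The brightest (1427049_s_at) had 1125 on day 2, 2122 on day 6, 2034 on day 9, 1634 on day 12 and 1283 on day 15. The second had 1095, 2334, 1940, 1200 and 996 in order of day. From day 2 to day 6 the levels differed 1.89-fold and 2.13-fold, and by day 15 they were back near day 2, with log2 differences of 0.19 and -0.14. The remaining probe set stayed below the floor on all 5 days, with 60.3 as its highest value. The steps from day 2 to day 6, with log2 differences of 0.92 and 1.09, were beyond the probe set spread. Days next to each other when the brightest was ranked by level lay within it.

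Kif7, the ciliary kinesin, had 212 on day 2, 352 on day 6, 300 on day 9, 328 on day 12 and 391 on day 15 by its probe set (1439637_at). Day 2 was the lowest day and the 4 later days lay close together. The level on day 15 was 1.84-fold that on day 2, a log2 difference of 0.88. That difference and the step of 0.73 from day 2 to day 6 were beyond the probe set spread of 0.68. Days next to each other when ranked by level lay within it.

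Counted over the 7 genes above the filter, 2 were at least 2-fold higher on day 15 than on day 2, Pth1r and Hhip, and 0 at least 2-fold lower. Over all 11075 genes 16.2% were that much higher and 11.6% that much lower, so 2 of 7 is not far from what all genes gave. The median log2 difference was 0.88 for the 7 genes and 0.00 for all genes. From day 2 to day 6, Pth1r and Gli2 were past 2-fold upward, against 10.2% of all genes, and 0 of the 7 downward, against 5.7%. From day 6 to day 9, Hhip and Ptch1 were past 2-fold upward, against 5.87% of all genes, and 0 downward, against 4.06%. From day 9 to day 12 none of the 7 differed 2-fold, where 1.72% of all genes were higher and 1.51% lower. From day 12 to day 15 Hhip and Gli2 were past 2-fold downward, against 3.92% of all genes, and 0 upward, against 4.23%. Hhip passed that step only just, at 2.01-fold. Between days 9 and 15, Pth1r was past 2-fold upward, against 5% of all genes, and Hhip downward, against 4.05%.

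**Figure D2:**
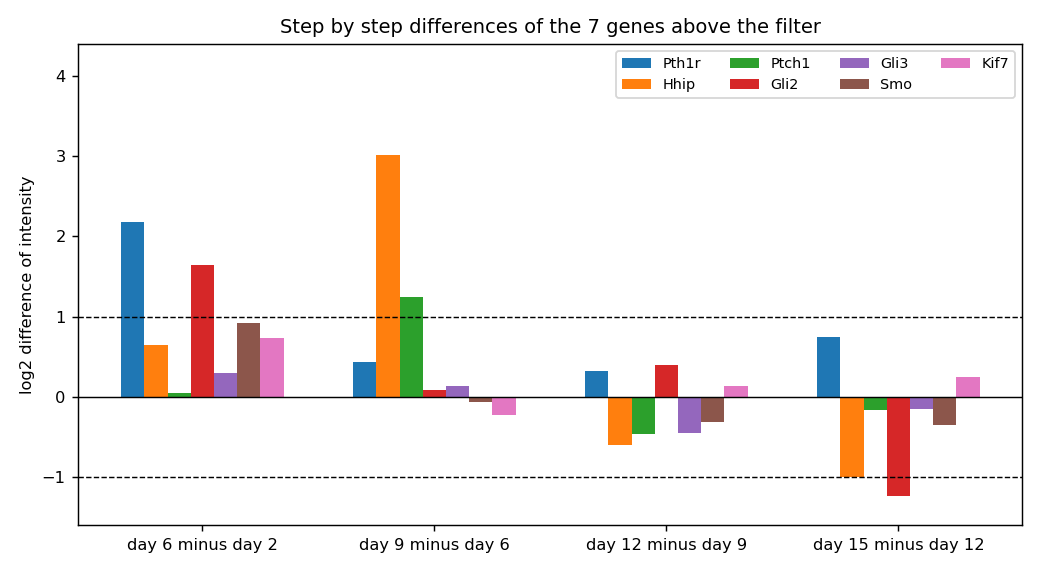
Log2 difference of intensity between consecutive days for the brightest probe set of the 7 genes above the filter, with intensities under the floor raised to it. Bars are single differences between 2 arrays and have no error bar, and dashed lines mark 2-fold. Pth1r and Gli2 passed 2-fold upward at the first step, Hhip and Ptch1 at the second, and Hhip and Gli2 downward at the last.

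Day 9 differed from day 2 more than day 15 did for 5 of the 7 genes, all but Pth1r and Kif7. On day 9, Pth1r, Ptch1, Hhip and Gli2 were at least 2-fold higher than on day 2 and 0 of the 7 lower, against 15.1% higher and 10.3% lower among all genes. This comparison was chosen after the levels were seen. When all probe sets of a gene were averaged, Hhip remained past 2-fold and Ptch1 and Gli2 did not. Pth1r has 1 probe set, so averaging could not alter it. For Ptch1 the average took in 2 dim probe sets that did not pass the filter. The 7 genes had their highest levels on day 6 in 1 gene (Smo), on day 9 in 3 (Ptch1, Hhip and Gli3), on day 12 in 1 (Gli2) and on day 15 in 2 (Pth1r and Kif7). None was highest on day 2 by its brightest probe set, the day on which 32.2% of all genes were highest. Of all genes, 16% were highest on day 6, 14% on day 9, 15.5% on day 12 and 22.4% on day 15. The second probe set of Gli3, which passed the filter, was highest on day 2, at 1176 against 1158 on day 6. A peak on day 9 at least 2-fold above both days 2 and 15 was found in 125 of 11075 genes (1.13%), Hhip among them. That pattern is the course already seen in Hhip, so its passing was fixed in advance and the share is no test.

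A straight line of log2 intensity against day was fitted with limma to the 5 arrays, and no curve was fitted, so a peak between the ends was not tested. Pth1r had a slope of 0.26 per day on the log2 scale (SE 0.041), an unadjusted p of 0.000875 and an adjusted p of 0.0734 by limma over all genes, which misses the 0.05 threshold. Hhip had a slope of 0.21 (SE 0.095), and its course was not straight. Over the 7 genes the limma test called 0 after adjustment and 1, Pth1r, at an unadjusted p under 0.05. Over all genes the adjusted limma test called a rising trend in 6 (0.0542%) and a falling trend in 0. At an unadjusted limma p under 0.05, 14.4% of all genes had a rising trend and 12.7% a falling one, so 1 of 7 is near the share over all genes. The adjusted limma p of Pth1r was 0.0498 with a pseudocount in place of the floor and 0.0485 with a stricter filter. Over all alternatives it ranged up to 0.269, reached without day 2.

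Other genes of both pathways were read from lists set by role, 81 genes in all, of which 59 passed the filter. Of these 59, 11 were at least 2-fold higher on day 15 than on day 2, 4 at least 2-fold lower and 44 neither, with a median log2 difference of 0.36. These are shares of 18.6% and 6.78%, beside the 16.2% and 11.6% of all genes given above. Against day 6 in place of day 2, 5 were higher and 6 lower on day 15, and against day 9, 1 was higher and 4 lower. None had a limma trend after adjustment. At an unadjusted limma p under 0.05 there were 11 of the 59, which is 18.6%, against 27.1% of all genes in either direction.

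The ligands were dim. Ihh, the hedgehog ligand of cartilage, was below the filter, with 16.1 on day 2, 86.0 on day 6, 21.8 on day 9, 32.7 on day 12 and 146 on day 15. It thus reached the floor on days 6 and 15 only, and on day 9, the peak of Hhip, it did not. Shh lay between 36.9 and 87.0, and Dhh had 208 on day 2 and at most 96.9 later. PTHrP itself, encoded by Pthlh, had no probe set under its symbol alone in the annotation used here. Pth, the hormone gene, was above the floor on day 6 only, at 110, and Pth2, which encodes a related peptide of another receptor, had 20.3 on day 2 and 270 on day 6.

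Genes for the release of hedgehog ligands split. Of 4 measured, Disp1, needed for release from the producing cell, was 2.54-fold higher on day 15 than on day 2 (1.23-fold lower by another probe set). Scube3, of a family of secreted proteins that carry the ligand, was at least 5.37-fold lower, with 392 on day 2 and 12.4 on day 15. Scube2 was 1.94-fold higher, and the acyltransferase gene Hhat 1.49-fold, or 2.09-fold when read by its second probe set.

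The co-receptors differed from each other in direction. Gas1, a membrane-anchored hedgehog co-receptor, had 547 on day 2, 5578 on day 6, 6494 on day 9, 3507 on day 12 and 3586 on day 15, 6.56-fold higher at the end. Another probe set put that difference at 4.03-fold, and the dimmest was at the floor on both days. Cdon, another co-receptor, had 1545, 1328, 692, 718 and 661 in order of day, 2.34-fold lower on day 15. Boc, the close relative of Cdon, was 1.28-fold lower, and Gpc3, a cell-surface glypican that competes for hedgehog ligands, was 1.75-fold higher after 8082 on day 6.

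Of the measured genes of the cilium and of GLI processing, 17 of 20 stayed within 2-fold, as did 72.2% of all genes, and the median log2 difference was 0.20. Ift172, of the ciliary transport complex, was 2.53-fold higher. Prkaca, a catalytic subunit of protein kinase A, which phosphorylates GLI proteins, was 2.00-fold higher, and a second probe set gave 2.14-fold. Arrb2 was 2.20-fold lower and 2.29-fold higher by another probe set, and Evc, of the ciliary complex that passes on the Smo signal, was 1.95-fold higher and 3.68-fold lower by another probe set. The GLI-binding repressor gene Sufu had 412 on day 2 and 404 on day 15, and its other 2 probe sets ranged from 2.64-fold lower to 1.05-fold higher.

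Of 6 measured hedgehog target genes of mesenchyme, 0 were at least 2-fold higher on day 15 and 1 was lower, with a median of -0.36. That gene was the forkhead factor Foxf1, with 434 on day 2, 73.8 on day 12 and 195 on day 15, 2.23-fold lower. The growth factor gene Tgfb2, the cyclin gene Ccnd1 and the survival gene Bcl2 were 1.48-fold, 1.29-fold and 1.28-fold lower by their brightest probe sets. The other probe sets of Tgfb2 ranged from 1.40-fold lower to 1.92-fold higher, and those of Ccnd1 were 1.85-fold and 1.87-fold lower. Of the other Bcl2 probe sets, 1 was 1.13-fold higher and the rest were at the floor on both days. Bcl2 had 334, 222, 352, 370 and 261 in order of day, lowest on day 6 and highest on day 12. On day 9 against day 2 the median of these 6 was -0.37.

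Below the PTH receptor, 7 of 23 measured genes were at least 2-fold higher on day 15 and 0 at least 2-fold lower, with a median of 0.49. The share of 30.4% higher stands beside 16.2% of all genes, and the 0 lower beside 11.6%. The list mixes signalling genes with target genes and set no expected direction for any of them, so the count is no measure of receptor activity. The adenylyl cyclase gene Adcy9 counts among the 7 by its brightest probe set, at 2.94-fold, while its other 3 probe sets were 1.54-fold to 1.97-fold lower. Mef2c, a transcription factor of chondrocyte hypertrophy, had 545 on day 2, 674 on day 6, 1462 on day 9, 1981 on day 12 and 2735 on day 15. Like Pth1r it was higher on each successive day, 5.02-fold in all and between 3.52-fold and 9.02-fold by its other 4 probe sets. Tnfsf11, which encodes the osteoclast-inducing cytokine RANKL, a known target of PTH in osteoblasts, was at least 4.46-fold higher, and a second probe set gave 2.83-fold. Cdkn1c, a cell cycle inhibitor of the growth plate, had 680 on day 2 and 6494 on day 9 and was 4.38-fold higher on day 15. Nr4a2, an early target of cyclic AMP, was 3.23-fold higher when read by the brightest probe set, and the other 5 ranged from 3.07-fold lower to 2.97-fold higher. Gnas, which encodes the stimulatory G protein that the receptor uses, was 1.31-fold higher, and its other 4 probe sets ranged from 3.06-fold lower to 5.08-fold higher.

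**Figure D3:**
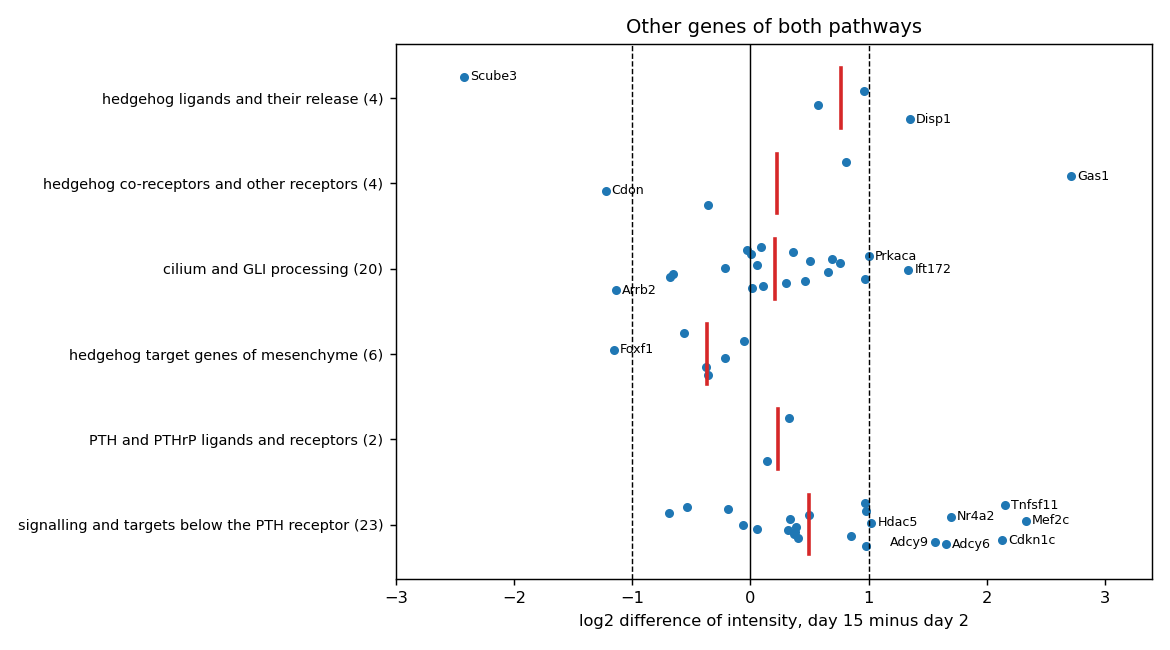
Log2 difference of intensity, day 15 minus day 2, of the 59 measured genes of both pathways outside the 8, 1 point a gene by its brightest probe set, grouped by role with the number measured in brackets. Red lines are group medians, dashed lines mark 2-fold and genes past it are named. The PTH receptor group had 7 genes to the right of 2-fold and 0 to the left of it.

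The genes most like each member were found by the root mean square difference of log2 profiles over the 5 arrays, after subtracting each gene's own mean, among 9887 other genes above the floor on every day. Nearest to Pth1r were Ccng2, at 0.065, and the type V collagen gene Col5a1, at 0.10, with 1099 on day 2 and 11816 on day 15. Nearest to Ptch1 were Nrp, at 0.055, and Trim25, at 0.089, which went from 851 on day 2 to 1944 on day 9. Smo was nearest to the fatty acid desaturase gene Fads2 and to Gtf2i, Kif7 to Josd2 and Zbtb25, Gli2 to Zfp229 and Ankrd44, and Gli3 to Zfp397 and Mphosph8. With 5 arrays and 9887 genes such close profiles are readily found, and they describe these arrays only. Hhip and Gli1 were at the floor on at least 1 day and were not compared.

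Markers of cell types also differed between days. Of 6 chondrocyte markers, all measured, 5 were at least 2-fold lower on day 15 and 1, Matn1, higher, and their summed intensity was 101462 on day 2, 19942 on day 12 and 32286 on day 15. All 5 measured osteoblast markers of 7 listed were at least 2-fold higher, with a summed intensity of 774 on day 2 and 78072 on day 15, higher on each successive day. Of the 5, Dmp1 was below the floor on days 2 and 6 and Alpl on day 6 only. Of 4 measured adipocyte markers of 6 listed, 3 were at least 2-fold higher, and their summed intensity was 3264 on day 2, 55041 on day 9, 93740 on day 12 and 51394 on day 15. All 7 fibroblast and perichondrium markers were measured, 6 of them at least 2-fold higher, with sums of 7242, 33844, 95177, 111614 and 125990 in order of day. Of these, Thy1 was below the floor on days 2 and 12. All 5 measured smooth muscle and pericyte markers of 6 listed were also at least 2-fold higher, with sums of 10273 on day 2 and 42577 on day 12, and of these Cnn1 was below the floor on day 2. Macrophage and osteoclast markers were at least 2-fold higher in 2 of 5 measured, Acp5 and Ctsk, with sums of 1833, 2184, 3451, 5287 and 6274 in order of day. The osteoblast, fibroblast and macrophage sums were thus all higher on each successive day, as Pth1r was. Of the osteoblast and fibroblast markers, Sp7, Ibsp, Col1a1, Col1a2, Col3a1, Lum and Postn had that order themselves. Others did not: Alpl was lower on day 6 than on day 2, Dcn was highest on day 9 and Pdgfra on day 12. Ctsk alone, however, had 1010 of the macrophage and osteoclast sum on day 2 and 5190 on day 15. In that list Acp5 was at least 4.15-fold and Cd68 1.44-fold higher on day 15, while Csf1r was 1.21-fold and Adgre1 1.46-fold lower. All 5 endothelial markers and 5 of 6 skeletal muscle markers were below the filter. Of 4 measured hypertrophic markers, Mmp13, Panx3 and Ibsp were at least 2-fold higher, and Col10a1 was lower, with 4800 on day 2, 35.1 on day 9 and 1686 on day 15. Ibsp was on the osteoblast list too, with 35026 of that list's sum of 78072 on day 15. The part of these cell types in the courses of Pth1r, Hhip and Ptch1 was not tested.

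**Figure D4:**
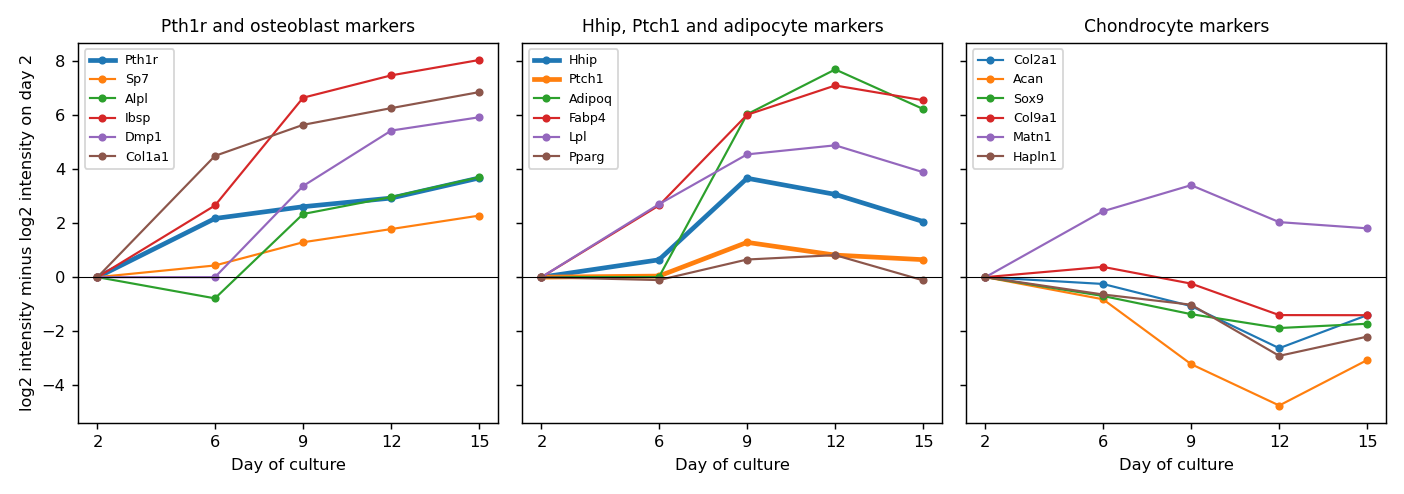
Log2 intensity minus log2 intensity at day 2 against day of culture, 1 array a day with no error bars and values under the floor raised to it. Panels hold Pth1r with 5 osteoblast markers, Hhip and Ptch1 with 4 adipocyte markers, and 6 chondrocyte markers. Pth1r and the osteoblast markers were highest at day 15, Hhip and Ptch1 at day 9, and Adipoq, Fabp4, Lpl and Pparg at day 12.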

How the data were processed

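RNA of 5 cultures of rib chondrocytes, 1 for each day, was hybridised to 1-colour oligonucleotide arrays. The deposited values were linear signal intensities. The authors made them with MAS5, according to the submitters' processing notes (version not given in the sources used here). Trimming 2% at each end gave a mean of 500 on every array, so a change common to most genes is hidden. Neither detection calls nor scanner files were analysed here.

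Probe sets were named by the platform annotation, with symbols updated by gene identifier through a RefSeq table of GRCm38.p6. Intensities below the 40th percentile were set to it and log2 was taken. A gene was its brightest probe set. Genes entered at a mean of 105.93, the median over probe sets without controls. Folds of at least 2 were counted with no test. The trend was fitted with limma 3.58.1 in R 4.3.3 (lmFit, eBayes, 3 residual and 2.83 prior degrees of freedom, two-sided, Benjamini-Hochberg over 11075 genes). On simulated data for the same 11075 genes it recovered 0, 21, 37 and 40 of 50 genes with total log2 changes of 1, 2, 3 and 4, with 9 false calls. The changes planted there were straight lines, with spreads shuffled between genes. The recovery therefore need not hold for the courses of the real genes. Python 3.11.15, pandas 2.3.3, numpy 2.4.6 and matplotlib 3.10.9 were used.

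Named genes were all 8 members, the largest differences (up to 4) of each pathway list with every ligand, members past 2-fold where the count was small, and the 2 genes nearest to each member. The markers named were chosen after their values were seen, in place of the 2 brightest of each list, and not every marker past 2-fold is named. Sufu and Gnas were added for their roles after their values were seen. Members and lists were chosen with earlier results of these data known. The labels do not say whether the 5 cultures came from a common isolate. Alternatives were other scalings, floors, filters and days, the mean over probe sets, separate probe sets and leaving out each array.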

Additional observations from a re-analysis of the deposited data

How the results depend on the processing

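No paired analysis was possible because each day had 1 array. The count of 2 members past 2-fold between days 2 and 15 became 4 with arrays centred on the median, where Kif7 and Gli2 passed, and 1 with the floor at the 60th percentile, where Hhip did not. Centring on the median moved the median log2 difference (day 15 minus day 2) of the genes above the floor on every day from -0.02 to 0.12. Hhip turned sign with day 9 in place of day 2 as the earlier day, to -1.61. Step by step, 6 differences past 2-fold became 3 with the mean over probe sets, and the 4 members higher on day 9 than on day 2 became 2. The limma trend called 0 members, 1 (Pth1r) with a pseudocount and 1 with the filter at the 70th percentile, and 0 with each array left out. Of the other pathway genes, 15 were past 2-fold (11 higher, 4 lower), 7 with that filter, which tests fewer genes, and 9 (6 and 3) with days 12 and 15 pooled against days 2 and 6. Higher genes no longer outnumbered lower ones against day 6 (11 past 2-fold, 5 higher and 6 lower) or day 9 (5 past 2-fold, 1 and 4). The Pth1r log2 difference kept its sign throughout, from 1.07 (against day 9) to 3.81. Values near the floor, those of Gli1, Ihh and the dim Ptch1 probe sets, limit what can be read of low levels.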
